A study of Homo sapiens with 12 samples.

Results

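A set of 10 effector genes of the integrated stress response was followed after treatment of the cell line NCI-H446, derived from a human small cell lung cancer, with CAPE. CAPE is caffeic acid phenethyl ester, a compound of the bee product propolis. The genes are CHAC1, TRIB3, ASNS, GDF15, VLDLR, STC2, NUPR1, CTH, PPP1R15A and EIF2AK3, found by symbol among the 34886 gene symbols of the deposited mRNA table, and all 10 were present. CAPE treatment was represented by 3 mRNA libraries of cells given 40 µM CAPE for 8 h, here CAPE 1 to 3. The controls were 3 libraries of cells given an equal volume of the solvent dimethyl sulfoxide, here DMSO 1 to 3. Both groups grew in DMEM with fetal bovine serum, penicillin and streptomycin, and no label says whether the libraries came from separate cultures, so the spread between libraries may be technical.

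The integrated stress response starts when a kinase senses unfolded protein, amino acid shortage, haem shortage or double-stranded RNA and phosphorylates the translation initiation factor eIF2 on its alpha subunit. General protein synthesis then slows, while the transcription factor ATF4 is translated more and switches on genes of amino acid supply, redox balance, secretion and cell death, several of them together with C/EBP factors or with DDIT3 (CHOP). PPP1R15A closes the loop by bringing a phosphatase to eIF2. The 10 genes stand at different places in this circuit: EIF2AK3 is a sensor, PPP1R15A and TRIB3 are feedback genes, ASNS, CTH and CHAC1 are enzymes of amino acids and thiols, GDF15 and STC2 are secreted, VLDLR is a receptor, and NUPR1 is a nuclear protein.

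The 10 genes were chosen with the CAPE and DMSO values of these libraries already known. Their levels and differences are therefore a description. How many of them passed the test over all genes is given once beside the share of all genes and supports nothing. The p-values below concern other genes. The pathway lists of those genes were also chosen with earlier results of these data known, so their p-values are not independent support.

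Of the 10 genes 9, all but NUPR1, were found in the RefSeq promoter table (GRCh38.p14), which holds 250 bases before and 50 bases after a start. Only the first start listed for each gene was searched, so other starts of the same gene are not covered. TGATGNAA, the core of the composite element that ATF4 binds with a C/EBP partner, was searched on both strands and was present in 2 of the 9, ASNS and CHAC1. It was present in 3.67% of all 27305 promoters in the table, and in 2.53% of the 15843 promoters of protein-coding genes. The cAMP response element TGACGTCA, a palindrome, was present in PPP1R15A alone of the 9. Its shares were 1.98% of all promoters and 2.59% of protein-coding ones. The AP-1 element TGANTCA (7.76% of all and 5.75% of protein-coding promoters) and the ER stress element (0.0806% and 0.12%) had no match in the 9 windows. None of the matches overlapped another, and each is a run of letters, not a measured binding site. The 3 windows with a match are shown because they place these letters within the genes whose values follow, with the matching letters in capitals. ASNS lies at chr7:97872359-97872658 on the minus strand, with the match at position -68 from the start that the table uses, where the nutrient-sensing element of this promoter is known to lie. CHAC1 lies at chr15:40953221-40953520 on the plus strand, with the match on the opposite strand at position -209. PPP1R15A lies at chr19:48872171-48872470 on the plus strand, with the match at position -58.
ASNS: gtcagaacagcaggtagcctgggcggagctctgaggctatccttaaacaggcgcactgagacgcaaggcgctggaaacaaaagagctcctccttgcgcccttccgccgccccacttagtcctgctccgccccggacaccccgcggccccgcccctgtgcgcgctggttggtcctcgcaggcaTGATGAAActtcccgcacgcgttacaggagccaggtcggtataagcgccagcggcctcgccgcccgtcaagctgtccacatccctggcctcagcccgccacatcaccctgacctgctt
CHAC1: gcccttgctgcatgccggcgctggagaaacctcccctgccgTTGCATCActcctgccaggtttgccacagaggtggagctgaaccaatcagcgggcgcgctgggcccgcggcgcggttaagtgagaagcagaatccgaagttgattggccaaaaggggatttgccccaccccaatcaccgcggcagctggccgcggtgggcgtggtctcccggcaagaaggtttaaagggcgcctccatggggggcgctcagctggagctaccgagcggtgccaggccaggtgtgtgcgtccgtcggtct
PPP1R15A: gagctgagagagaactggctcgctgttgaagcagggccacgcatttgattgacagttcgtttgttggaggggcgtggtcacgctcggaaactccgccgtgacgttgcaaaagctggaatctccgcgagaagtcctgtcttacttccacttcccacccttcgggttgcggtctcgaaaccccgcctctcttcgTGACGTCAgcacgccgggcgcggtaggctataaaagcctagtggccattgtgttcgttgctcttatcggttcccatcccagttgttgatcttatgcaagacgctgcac

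The mRNA libraries held 17569997 to 20917508 estimated counts. Levels are given as CPM, which are estimated counts scaled to library size times a TMM factor of each library. A smaller factor gives a higher CPM. They are also given as the deposited TPM, which divide by transcript length and carry no TMM factor. CPM and TPM of a library therefore differ in both respects. DMSO 3 stood apart from the other 5 libraries. Its counts correlated with those of DMSO 1 and DMSO 2 at Spearman coefficients of 0.908 and 0.905 over 13595 genes, against 0.997 for every other pair within a group, its TMM scaling factor was 0.699 against 1.07 to 1.09, and it had 16207 genes with a count against 17864 to 18587. Values are therefore given with and without it. Of 6 neuroendocrine markers NEUROD1, INSM1, CHGA and NCAM1 reached at most 0.106 CPM in any library and SYP lay at 0.474 to 1.09 CPM, so the defining neuroendocrine markers were at or near 0. ENO2 rose, with 176, 169 and 188 CPM in CAPE, against 38.9, 37.7 and 53.7 CPM in DMSO (log2 fold change 2.03, SE 0.19, adjusted p = 0.0137 by edgeR), and its part in the results below was not tested. The epithelial keratins KRT8 and KRT18 were abundant (354 to 3421 CPM, highest in DMSO 3), while the third epithelial marker, EPCAM, was low (1.32 to 2.18 CPM). Of the tuft-like and YAP1 subtype markers, POU2F3 did not exceed 0.264 CPM and YAP1 lay at 83.5 to 182 CPM. The fibroblast markers COL1A1 and DCN lay at 17.8 to 27.1 and 15.9 to 21.7 CPM. PECAM1, an endothelial marker, lay at 1.91 to 3.97 CPM, and the leukocyte marker PTPRC did not exceed 1.43 CPM.

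On average the 10 genes were higher with CAPE, and GDF15 and CHAC1 differed most. Per length, as TPM, all 3 CAPE libraries lay above all 3 DMSO libraries for each of the 10 genes, where 25.8% of the genes tested did so. In CPM this held for 8 of the 10, where 21.4% of genes did so, and the exceptions were TRIB3 and NUPR1. Passing means a Benjamini-Hochberg adjusted p below 0.05 over all genes in the quasi-likelihood test of edgeR, and 5 of the 10 passed upward, where 1.49% of 13595 genes did. These 5 were CHAC1, GDF15, VLDLR, STC2 and CTH. Without DMSO 3 all 10 passed, where 20.4% of 13919 genes passed upward. Leaving out DMSO 1, DMSO 2, CAPE 1, CAPE 2 or CAPE 3 in turn left none of the 10. Because the genes were chosen from this contrast, nothing is read from these counts. Their median log2 fold change was 1.56 beside -0.01 over all genes tested, and 1.81 beside 0.00346 without DMSO 3. In bulk RNA a higher level in every cell and in some cells cannot be told apart.

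**Figure D1:**
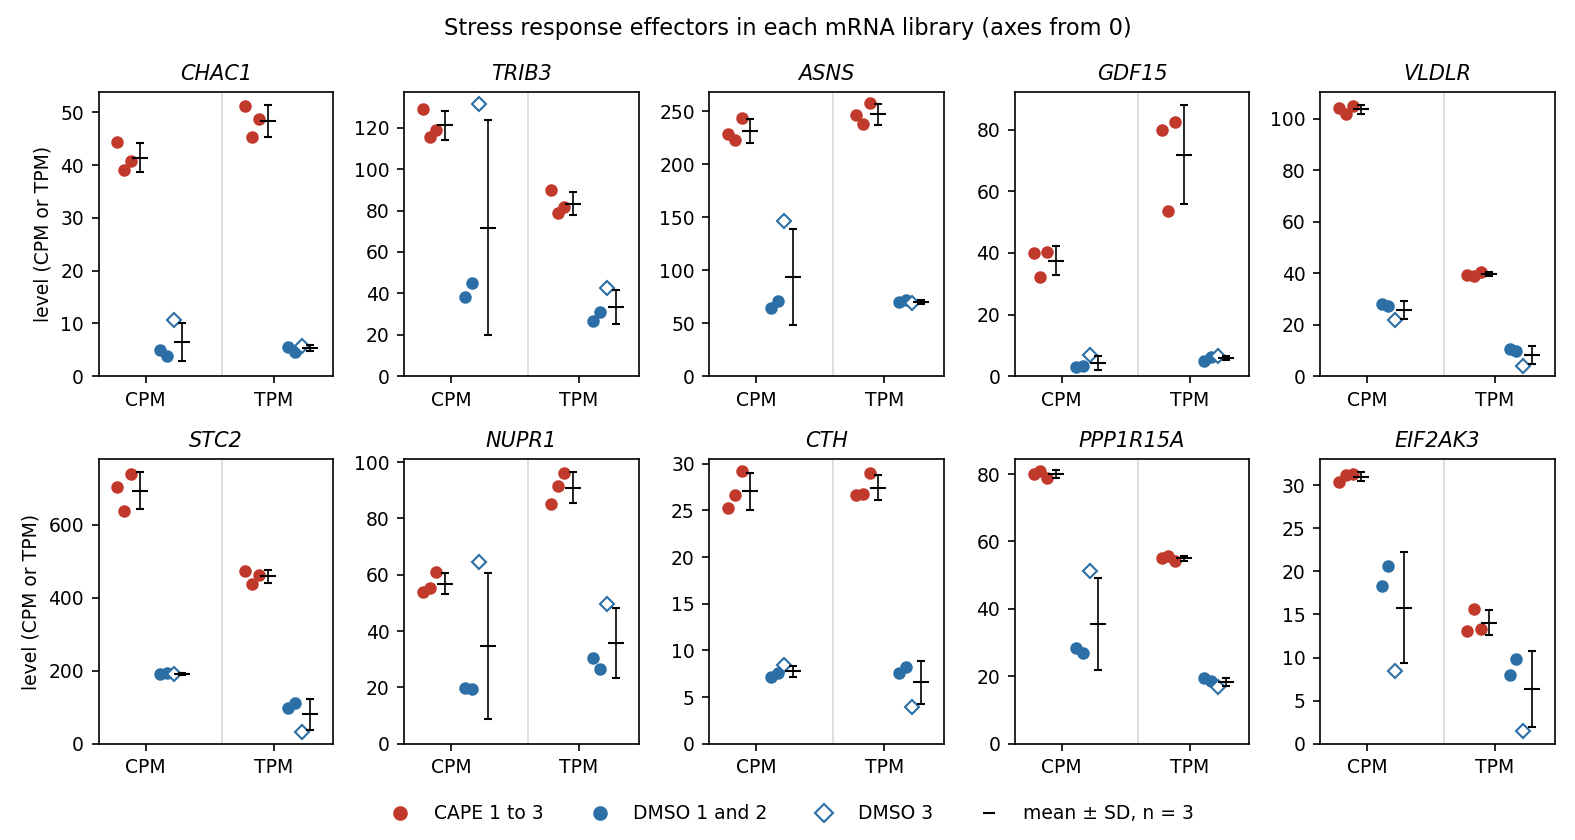
Levels of the 10 effector genes in each mRNA library, in CPM (left of each panel) and TPM (right), with CAPE libraries in red, DMSO 1 and DMSO 2 in filled blue, DMSO 3 as an open diamond, and black bars for the mean ± SD of 3 libraries. CAPE libraries lie above all DMSO libraries in every TPM panel. In CPM, on TMM-scaled library sizes, DMSO 3 reaches the CAPE range for TRIB3 (132 CPM) and NUPR1 (64.5 CPM).

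EIF2AK3 encodes PERK, the kinase of the endoplasmic reticulum membrane that senses unfolded protein and phosphorylates eIF2 (chromosome 2, 88556741 to 88628145, GRCh38.p14). It measured 30.4, 31.2 and 31.3 CPM in CAPE 1 to 3, against 18.3, 20.6 and 8.48 CPM in DMSO 1 to 3. The CAPE libraries were close to each other and above every DMSO library, and DMSO 3 was the lowest. The log2 fold change was 0.97 (SE 0.33), and 0.67 (SE 0.08) without DMSO 3, the smallest of the 10 in that fit.

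PPP1R15A encodes GADD34, the inducible subunit that directs protein phosphatase 1 to eIF2 (chromosome 19, 48872421 to 48876058). Its levels were 80.1, 81.0 and 78.7 CPM in CAPE, against 28.4, 26.8 and 51.2 CPM in DMSO. The groups did not overlap, and DMSO 3 lay between DMSO 1 and the CAPE libraries. In TPM the same libraries gave 55.1, 55.7 and 54.1 in CAPE, against 19.5, 18.6 and 16.9 in DMSO, with no such gap for DMSO 3. Its log2 fold change was 1.17 (SE 0.28) in counts, and 1.53 (SE 0.06) without DMSO 3.

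TRIB3 encodes a pseudokinase that binds AKT and restrains ATF4 and CHOP in a feedback loop (chromosome 20, 380760 to 397559). It measured 129, 116 and 119 CPM in CAPE, against 38.3, 45.2 and 132 CPM in DMSO. DMSO 3 exceeded all 3 CAPE libraries, so the groups overlapped in these TMM-scaled values. In estimated counts before scaling they did not, with 2441, 2176 and 2321 in CAPE, against 727, 865 and 1924 in DMSO. In TPM the values were 89.8, 78.7 and 81.7 in CAPE, against 26.5, 31.0 and 42.6 in DMSO, and the groups were separate. The log2 fold change of 0.76 (SE 0.48) became 1.53 (SE 0.07) without DMSO 3.

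ASNS encodes asparagine synthetase, which makes asparagine from aspartate and glutamine (chromosome 7, 97851677 to 97928441). It was the second most abundant of the 10 per length, at 246, 238 and 258 TPM in CAPE, against 70.2, 72.1 and 68.7 TPM in DMSO. Each group spanned a narrow range in TPM. In CPM the levels were 228, 223 and 244 in CAPE, against 64.1, 70.6 and 146 in DMSO, with DMSO 3 above the other DMSO libraries. Its log2 fold change was 1.31 (SE 0.34), and 1.78 (SE 0.06) without DMSO 3.

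CTH encodes cystathionine gamma-lyase, the enzyme that releases cysteine at the end of transsulfuration (chromosome 1, 70411268 to 70439851). It measured 25.3, 26.6 and 29.2 CPM in CAPE, against 7.17, 7.62 and 8.42 CPM in DMSO. In CPM all 3 DMSO libraries were alike and below every CAPE library. In TPM the values were 26.7, 26.7 and 29.0 in CAPE, against 7.58, 8.20 and 3.96 in DMSO, with DMSO 3 the lowest. The log2 fold change of 1.81 (SE 0.16) was 1.87 (SE 0.11) without DMSO 3.

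CHAC1 encodes a gamma-glutamylcyclotransferase that breaks down glutathione (chromosome 15, 40953471 to 40956512). Its levels were 44.4, 39.0 and 40.7 CPM in CAPE, against 4.95, 3.86 and 10.6 CPM in DMSO. The groups were far apart, and DMSO 3 held the highest DMSO value. The DMSO values rest on 94, 74 and 155 estimated counts. The log2 fold change was 2.68 (SE 0.40), and 3.23 (SE 0.11) without DMSO 3.

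GDF15 encodes a secreted cytokine of the TGF-beta superfamily that acts on the brainstem receptor GFRAL (chromosome 19, 18386158 to 18389176). It measured 40.0, 32.2 and 40.3 CPM in CAPE, against 2.95, 3.19 and 6.84 CPM in DMSO. This was the largest difference of the 10, with a log2 fold change of 3.12 (SE 0.37), and 3.61 (SE 0.14) without DMSO 3. It was also the least even among CAPE libraries, with a coefficient of variation of 12.3% in CPM, since CAPE 2 was lower than CAPE 1 and CAPE 3. GFRAL itself had no count in any library. The miRNA gene MIR3189 lies within GDF15, and its arms miR-3189-5p and miR-3189-3p summed to 0 and 1 counts over the 6 separate miRNA libraries, below the 3 counts that a count of 0 allows for counting error.

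STC2 encodes stanniocalcin 2, a secreted glycoprotein (chromosome 5, 173314723 to 173328414), and was the most abundant of the 10. It measured 474, 439 and 462 TPM in CAPE, against 97.5, 111 and 32.7 TPM in DMSO. DMSO 3 was far below the other DMSO libraries in TPM, but not in CPM, where the levels were 702, 638 and 738 in CAPE, against 191, 193 and 190 in DMSO. The CAPE to DMSO ratio of means was accordingly 5.71 in TPM and 3.63 in CPM. Without DMSO 3 these ratios were 4.40 and 3.61. The estimated count per TPM, relative to the median gene of the library, averaged 1.20 in CAPE, against 1.44 in DMSO 1 and DMSO 2 and 2.05 in DMSO 3. Reads of STC2 were thus assigned on average to shorter transcript models in the CAPE libraries. For the other 9 genes the CAPE mean of this quotient and that of DMSO 1 and DMSO 2 were closer, as for CHAC1 (0.677 and 0.670) and TRIB3 (1.15 and 1.13).

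VLDLR encodes the very low density lipoprotein receptor, which also binds reelin (chromosome 9, 2621787 to 2660056). It measured 104, 102 and 105 CPM in CAPE, against 28.0, 27.4 and 21.6 CPM in DMSO. The CAPE libraries differed from each other by less than the DMSO libraries did, and the groups were far apart. With all libraries the log2 fold change was 2.01 (SE 0.16), and 1.90 (SE 0.06) without DMSO 3. The antisense gene VLDLR-AS1 overlaps it in the annotation, as EIF2AK3-AS1 overlaps EIF2AK3, and the sources used here do not say whether strand was used in counting.

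NUPR1 encodes a small nuclear protein induced by many stresses (chromosome 16, 28532708 to 28538974). It measured 53.8, 55.4 and 61.0 CPM in CAPE, against 19.6, 19.5 and 64.5 CPM in DMSO. DMSO 3 exceeded every CAPE library in these TMM-scaled values. In estimated counts before scaling it did not, with 1019, 1042 and 1192 in CAPE, against 372, 374 and 943 in DMSO. In TPM the values were 85.2, 91.4 and 96.3 in CAPE, against 30.4, 26.7 and 49.8 in DMSO, without overlap. The log2 fold change of 0.72 (SE 0.50) became 1.53 (SE 0.08) without DMSO 3.

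**Figure D2:**
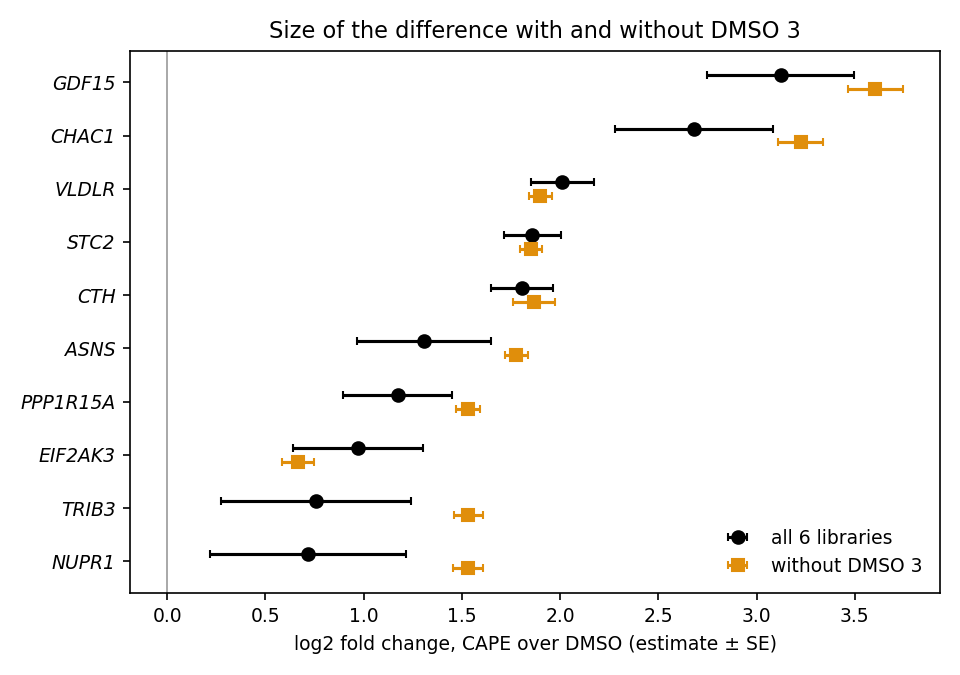
Log2 fold change of CAPE over DMSO for each gene with its SE, from the fit of all 6 libraries (black circles) and of 5 libraries without DMSO 3 (orange squares). TRIB3 and NUPR1 move most, to 1.53 each without DMSO 3, while STC2 and CTH stay near 1.9 in both fits.

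The size of the difference varied with the library left out more for some genes than for others. Between fits that left out 1 library, the lowest of the 10 log2 fold changes lay between 0.42 and 0.76, and all 10 stayed above 0. Relative to DMSO 1 and DMSO 2, DMSO 3 was higher by 1.72 on the log2 CPM scale for NUPR1, 1.66 for TRIB3, 1.26 for CHAC1, 1.13 for GDF15 and 1.12 for ASNS. The same difference in log2 CPM was -0.35 for VLDLR and -1.18 for EIF2AK3. On the log2(TPM + 1) scale DMSO 3 differed by 0.78 for NUPR1, 0.55 for TRIB3, 0.15 for CHAC1, 0.18 for GDF15 and -0.05 for ASNS. There VLDLR had -1.15 and EIF2AK3 -2.02. The genes with low counts per TPM tended to be the ones raised in DMSO 3 in CPM. Spearman's rho between that quotient and the DMSO 3 deviation in log2 CPM was -0.75 over the 10 genes. Over 13004 genes with a TPM above 1 it was -0.44. These points share the same libraries, so the coefficient is a description. The part of transcript length or RNA quality in these values was not tested.

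**Figure D3:**
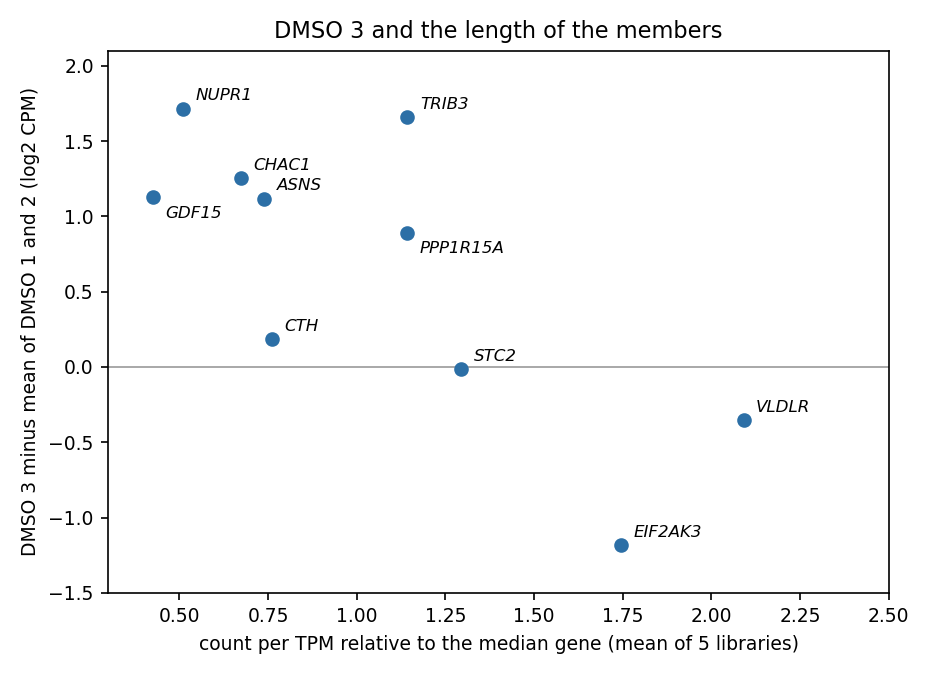
Deviation of DMSO 3 from the mean of DMSO 1 and DMSO 2 (log2 CPM) against the estimated count per TPM relative to the median gene (mean of the other 5 libraries), 1 point per gene. Genes with a low quotient such as NUPR1 lie above 0, and VLDLR and EIF2AK3, with quotients of 2.09 and 1.74, lie below 0.

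Ordered by mean TPM, the CAPE libraries ran from STC2 (458 ± 17.8 TPM, SD, n = 3) and ASNS (247 ± 10.1) through NUPR1, TRIB3, GDF15, PPP1R15A, CHAC1, VLDLR and CTH to EIF2AK3 (at most 15.7). Ranges of the libraries overlapped between NUPR1 and TRIB3, between TRIB3 and GDF15 and between GDF15 and PPP1R15A, and not between the other neighbours. In DMSO the order was STC2 (80.3 ± 41.7 TPM), ASNS (70.3 ± 1.72), NUPR1, TRIB3, PPP1R15A, VLDLR, CTH, EIF2AK3, GDF15 and CHAC1 (5.34 ± 0.631). The last 5 of these overlapped from each neighbour to the next, as did STC2 with ASNS and NUPR1 with TRIB3. GDF15 and CHAC1 had the lowest means of the 10 in DMSO, at 5.87 and 5.34 TPM, though EIF2AK3, CTH and VLDLR lay below them in DMSO 3, and with CAPE they reached 71.9 and 48.4 TPM, above VLDLR, CTH and EIF2AK3.

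The 5 other protein-coding genes whose log2 CPM followed the mean standardised profile of the 10 most closely over the 6 libraries were HILPDA, DUSP1, NDRG1, JUN and CDC6, with Pearson's r of 0.99869 to 0.99968 among 9257 genes. Among the 10 genes r ran from 0.63 for EIF2AK3 and 0.81 for NUPR1 to 0.999 for GDF15. These coefficients come from the libraries on which the 10 genes were chosen. HILPDA, a lipid droplet protein, measured 60.8, 55.8 and 61.0 CPM in CAPE, against 15.2, 15.8 and 25.0 CPM in DMSO.

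Several of the 10 genes have close relatives in the genome, and levels per length place them side by side. CHAC1 stood at 1.96, 1.79 and 2.11 times the TPM of CHAC2, the constitutive glutathione cyclotransferase, in CAPE, against 0.171, 0.132 and 0.466 times in DMSO. So CHAC1 lay above CHAC2 in every CAPE library and below it in every DMSO library. VLDLR stood at 0.498, 0.426 and 0.508 times LRP8, the other reelin receptor, in CAPE, against 0.106, 0.106 and 0.205 times in DMSO. These ratios did not overlap between the groups, and VLDLR was the lower gene in all 6 libraries. PPP1R15A stood at 1.09, 1.13 and 1.14 times PPP1R15B, the constitutive eIF2 phosphatase subunit, in CAPE, against 0.422, 0.375 and 1.29 times in DMSO, where DMSO 3 exceeded the CAPE libraries. ASNS stood at 5.09, 3.78 and 3.87 times ASNSD1 in CAPE, against 1.25, 1.14 and 4.82 times in DMSO, and the groups overlapped through DMSO 3. In DMSO 3 PPP1R15B measured 13.1 TPM and ASNSD1 14.3 TPM. In DMSO 1 and DMSO 2 PPP1R15B measured 46.1 and 49.7 TPM, and ASNSD1 56.2 and 63.2 TPM. PPP1R15A and ASNS themselves were not higher in DMSO 3 in TPM (16.9 and 68.7). The ratios of TRIB3 to TRIB1, TRIB3 to TRIB2 and STC2 to STC1 overlapped between the groups too, and that of NUPR1 to NUPR2 did not. EIF2AK3 gave 9.01% to 9.71% of the summed TPM of the 4 eIF2 kinases in CAPE, against 1.81% to 6.08% in DMSO, and was the lowest of the 4 in every library.

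**Figure D4:**
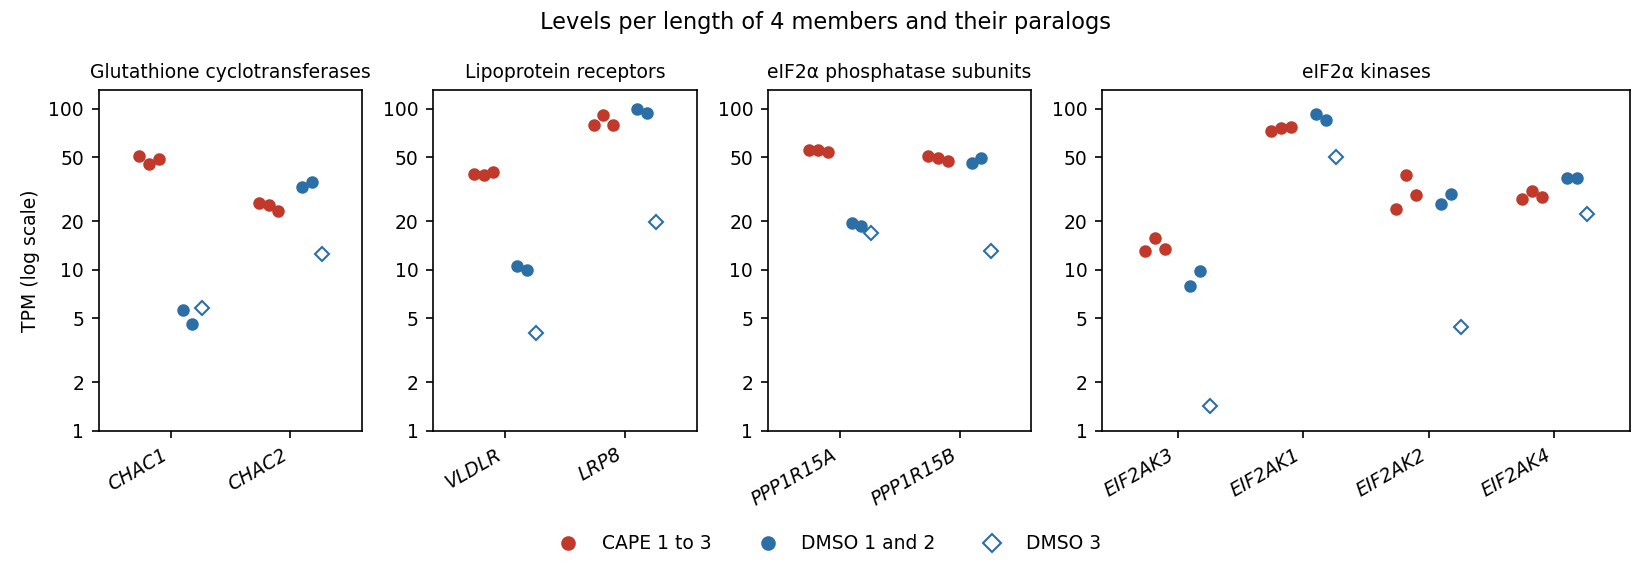
TPM (log scale) of CHAC1, VLDLR, PPP1R15A and EIF2AK3 beside their relatives, 1 point per library, with CAPE in red, DMSO 1 and DMSO 2 in filled blue and DMSO 3 as an open diamond. CHAC1 changes places with CHAC2 between the groups, VLDLR stays below LRP8, and EIF2AK3 stays the lowest kinase.

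Of the 11 relatives tested, 1 rose and none fell, where 1.49% of all genes rose and 0.456% fell. STC1, the paralog of STC2, rose at a low level, with 2.22, 2.61 and 2.61 CPM in CAPE, against 0.422, 0.679 and 0.479 CPM in DMSO (log2 fold change 2.21, SE 0.28, adjusted p = 0.0256 by edgeR). TRIB1 had a log2 fold change of 0.69 (SE 0.15) and 0.0938 as its adjusted p by edgeR. CHAC2, ASNSD1, LRP8, PPP1R15B, TRIB2, NUPR2 and the kinases EIF2AK1, EIF2AK2 and EIF2AK4 lay between -0.45 and 0.80. Without DMSO 3, 2 of the 11 were higher and 5 lower, where 20.4% and 20.8% of genes were. Among those 5, the kinase EIF2AK4 (GCN2, the sensor of uncharged tRNA) fell, with a log2 fold change of -0.43 (SE 0.05, adjusted p = 8.23e-06 by edgeR) as did CHAC2 (-0.45, SE 0.09, adjusted p = 9.38e-04 by edgeR). PPP1R15B had a log2 fold change of 0.04 (SE 0.05) in that fit. The calls made with 6 libraries, here and in the lists that follow, were all lost when any 1 library other than DMSO 3 was left out.

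Of 6 transcription factors of the response 3 rose and none fell, where 1.49% of all genes rose and 0.456% fell. Without DMSO 3 they numbered 4 higher and 1 lower, where 20.4% and 20.8% of genes were. ATF3, an early repressor and activator, measured 51.6, 46.5 and 54.0 CPM in CAPE, against 6.96, 5.53 and 9.99 CPM in DMSO (log2 fold change 2.76, SE 0.26, adjusted p = 0.0135 by edgeR). DDIT3, which encodes CHOP, measured 20.3, 23.8 and 22.5 CPM in CAPE, against 4.53, 4.33 and 5.68 CPM in DMSO (2.20, SE 0.18, adjusted p = 0.0106 by edgeR). CEBPG, a dimer partner of ATF4, also rose (1.10, SE 0.17, adjusted p = 0.0372 by edgeR). ATF4 mRNA did not pass, with 531, 513 and 526 CPM in CAPE, against 359, 367 and 878 CPM in DMSO, and a log2 fold change of -0.03 (SE 0.38). In TPM its values were 666, 637 and 653 in CAPE, against 449, 462 and 536 in DMSO. The groups were separate there, as for 25.8% of the genes tested. Without DMSO 3 the log2 fold change of ATF4 in counts was 0.52 (SE 0.04, adjusted p = 6.57e-08 by edgeR). ATF5 and CEBPB had -1.02 and -0.64 with all libraries, and -0.40 and 0.18 without DMSO 3.

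No gene of the machinery that senses stress and acts on eIF2 passed with all libraries. None of 11 kinases and regulators passed with 6 libraries (2 at an unadjusted p under 0.05 in edgeR, and 2 by DESeq2). HSPA5, the ER chaperone that holds PERK inactive, had the smallest p, with 2709, 2762 and 2592 CPM in CAPE, against 1174, 1078 and 1629 CPM in DMSO (log2 fold change 1.05, SE 0.21, adjusted p = 0.0820 by edgeR). Without DMSO 3, 2 of the 11 were higher, HSPA5 and DNAJC3, a PERK inhibitor (1.25 and 0.89), and 4 lower, beside 20.4% and 20.8% of all genes. None of 15 subunits of eIF2, its exchange factor eIF2B and its phosphatases passed (3 at an unadjusted p under 0.05 in edgeR, and 2 by DESeq2). EIF2S2, the beta subunit of eIF2, had the smallest p (0.45, SE 0.14, adjusted p = 0.214 by edgeR). Without DMSO 3, 1 of the 15 was higher, EIF2S2, and 7 lower, beside the same 20.4% and 20.8%, and the median was -0.11.

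Among 11 other tested effectors 3 rose and none fell, where 1.49% of all genes rose and 0.456% fell, with a median log2 fold change of 1.24. FAM129A (NIBAN1), a stress-induced cytosolic protein, measured 118, 126 and 120 CPM in CAPE, against 45.2, 49.0 and 32.8 CPM in DMSO (1.52, SE 0.19, adjusted p = 0.0253 by edgeR). VEGFA, the angiogenic growth factor, measured 361, 344 and 381 CPM in CAPE, against 150.0, 150.0 and 100.0 CPM in DMSO (1.44, SE 0.21, adjusted p = 0.0322 by edgeR). The third was SESN2, a leucine sensor that restrains mTORC1 (1.84, SE 0.29, adjusted p = 0.0405 by edgeR). Without DMSO 3, 11 of 12 were higher and 1, KLHL24, lower, where 20.4% and 20.8% of genes were, and the median was 1.13. FGF21, a stress hormone, was tested only there and had 7, 17 and 14 counts in CAPE, against 0 in each DMSO library. The CAPE mean of 12.7 counts was 4.22 times the 3 counts per library that a count of 0 allows for. The CAPE counts carry counting error too, so this ratio is not a strict lower bound.

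**Figure D5:**
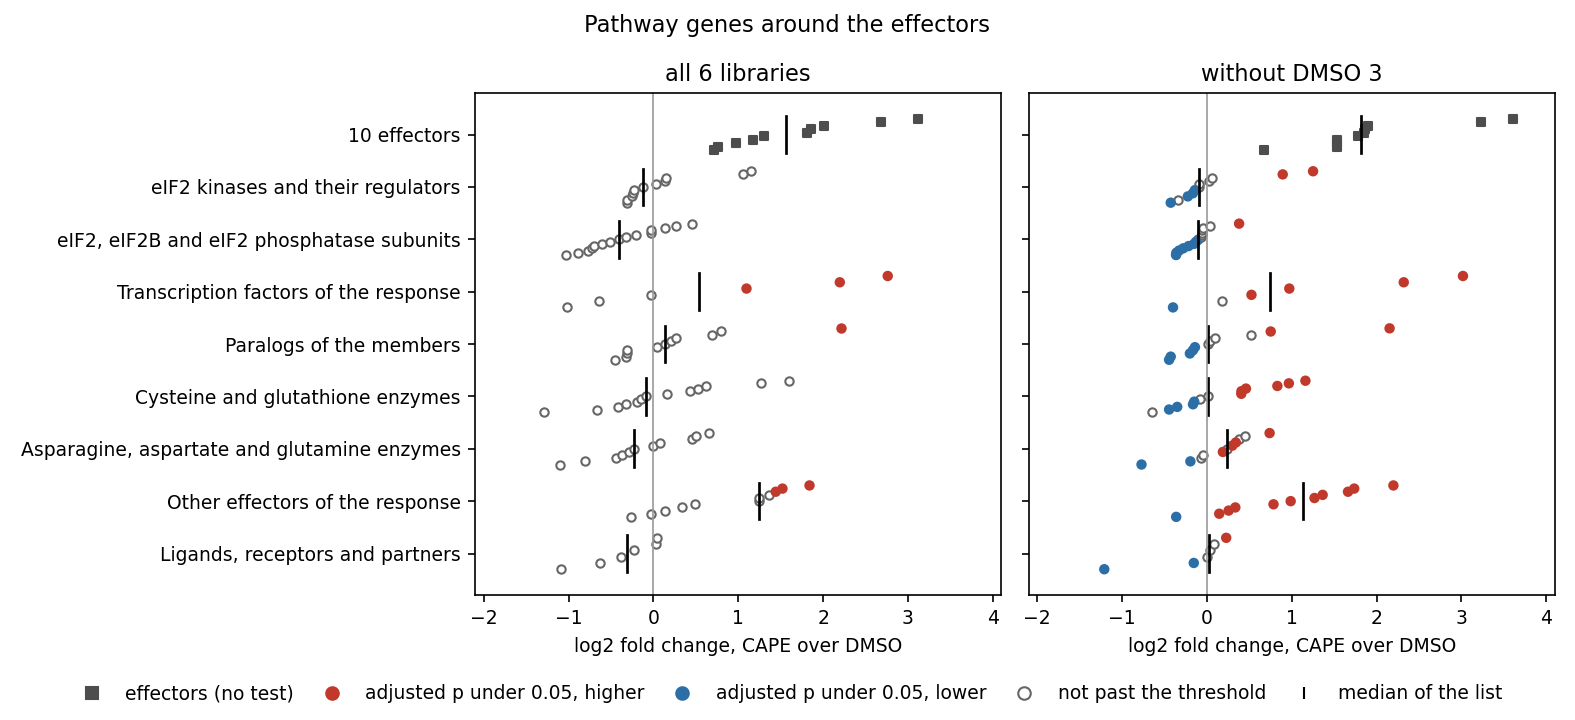
Log2 fold change of CAPE over DMSO for each gene of 8 pathway lists and of the 10 effectors (grey squares, no test), with all 6 libraries (left) and without DMSO 3 (right). Red and blue points passed an edgeR adjusted p of 0.05, open points did not, vertical bars are list medians, and FGF21 (no count in DMSO) is left out of the points.

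Enzymes next to ASNS, CTH and CHAC1 in metabolism gave no call with all libraries. None of 13 tested enzymes and transporters of cysteine and glutathione passed (5 at an unadjusted p under 0.05 in edgeR, and 1 by DESeq2), and their median was -0.09. GCLC, the catalytic subunit of glutathione synthesis, had the smallest p, with 97.1, 115 and 89.4 CPM in CAPE, against 53.4, 49.3 and 22.6 CPM in DMSO (1.27, SE 0.34, adjusted p = 0.161 by edgeR). Without DMSO 3, 6 of the 13 were higher and 4 lower, beside 20.4% and 20.8% of all genes in that fit. Glutathione synthetase, GSS, was listed at 0 in every library. None of 11 enzymes of asparagine, aspartate and glutamine passed (1 at an unadjusted p under 0.05 in edgeR, and 1 by DESeq2). GLUL, glutamine synthetase, had the smallest p, with 60.6, 59.9 and 58.7 CPM in CAPE, against 101, 103 and 182 CPM in DMSO (-1.11, SE 0.27, adjusted p = 0.128 by edgeR). Without DMSO 3, 4 of these 11 were higher and 2 lower, again beside 20.4% and 20.8% of all genes, with GLUL among the lower (-0.77, SE 0.05, adjusted p = 2.28e-08 by edgeR). None of 6 tested ligands, receptors and partners of the effectors passed (1 at an unadjusted p under 0.05 in edgeR, and 1 by DESeq2). DAB1, the adaptor of VLDLR in reelin signalling, had the smallest p, with 2.59, 1.86 and 2.45 CPM in CAPE, against 4.37, 6.27 and 4.04 CPM in DMSO (-1.09, SE 0.27, adjusted p = 0.131 by edgeR). Without DMSO 3, 1 of the 6 was higher and 2 lower, where 20.4% and 20.8% of genes were.

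Over the 8 lists together, 7 of 79 tested genes passed, each of them higher, where 1.49% of all genes passed upward. Leaving out any library other than DMSO 3 left 0 of them. Without DMSO 3, 53 of 80 passed, 31 higher and 22 lower, where 41.2% of genes passed.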

How the data were processed

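Messenger RNA of NCI-H446 cells was sequenced as 150-bp paired-end reads in 3 CAPE and 3 DMSO libraries. The authors deposited estimated counts per gene symbol and TPM values, made with bcl2fastq and kallisto 0.46.1 on GRCh38 per the submitters' processing notes. How transcripts were summed to genes, the annotation release and any use of strand are not given here. The deposited estimated counts are whole numbers, and 32 to 65 genes per library have a TPM above 0 beside a count of 0. The authors also deposited raw counts per mature miRNA, used here for miR-3189 alone.

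Genes with low counts were removed by filterByExpr. Groups were compared on TMM-scaled libraries with the quasi-likelihood test of edgeR 4.0.16 under R 4.3.3, with group as its single term, and p-values were adjusted by Benjamini-Hochberg over all 13595 genes tested. CPM use the TMM-scaled library sizes, log2 CPM a prior count of 2, and the SE is the log2 fold change over the square root of F. Calls are at an adjusted p under 0.05. Alternatives were RLE factors, no low-count filter, DESeq2 1.42.0, limma 3.58.1 on log2(TPM + 1) with pseudocounts of 0.1 and 5 besides, a replicate block, and leaving out each library. No protein sequences were used here.

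The 10 genes, the pathway lists and the naming rule were chosen with earlier results of these data known. Per list the rule named up to 2 passing genes each way, by smallest p, or the gene of smallest p where none passed, all 6 transcription factors, the relatives of the 10 genes, and the 5 genes of most similar profile with an average log2 CPM of at least 3. SESN2, KLHL24, FGF21, DNAJC3 and the relatives' values without DMSO 3 were added after their values were seen. Some genes were taken out of the lists and are not analysed here, and most list genes enter the text as counts alone.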

Additional observations from a re-analysis of the deposited data

How the results depend on the processing

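All 10 effector genes kept a log2 fold change above 0 in the 13 alternative settings, and 122 of 130 of their values moved by less than the spread between libraries. That spread includes DMSO 3, so it is wide for the genes that DMSO 3 shifts. TRIB3 and NUPR1, at 0.76 and 0.72, count as moved by less, although both were 1.53 without DMSO 3. The count of 122 therefore cannot show how far the values depend on DMSO 3. The count of genes passing, 265 with 6 libraries, was 1022 with DESeq2, 135 with limma on log2(TPM + 1) and 88 with a pseudocount of 0.1. It ran from 0 to 5731 when 1 library was left out. With the replicate block it was 0 (1384 genes at an unadjusted p under 0.05 in edgeR), as were the counts among the 10 effectors (8 at an unadjusted p under 0.05) and among the pathway genes (17). Among the 10 effectors the count ran from 0 to 10 with 1 library left out and was 8 with limma on log2(TPM + 5). Among the pathway genes it ran from 0 to 53 with 1 library left out and was 18 with DESeq2, against 7. Among the effectors and the pathway genes the count was 0 by edgeR without any 1 library other than DMSO 3, while 7 to 8 of the 10 effectors and 16 to 28 pathway genes had an unadjusted p under 0.05. The cause was not tested. The median log2 fold change of all genes was 0.305 with limma on log2(TPM + 1), 0.399 with a pseudocount of 0.1 and 0.177 with 5, against -0.014 in the count fit. STC2 and VLDLR moved beyond the spread between libraries in all 3 TPM fits and CTH in 2, with STC2 at 2.60 to 2.69 before that shift is taken off. No label says that equal numbers mark a shared culture, so the numbers were not taken as pairs. Deviations of same-numbered libraries from their group means had r from -0.194 to 0.14, and not every library correlated best with its own number. This check could not decide on pairing, because DMSO 3 makes the deviations of DMSO 1 and DMSO 2 much alike. CAPE 1, for example, had r of -0.194 and -0.184 with DMSO 1 and DMSO 2, against 0.203 with DMSO 3. Depth limits CHAC1 and GDF15 in DMSO, at 56 to 155 estimated counts, and STC1, TRIB2 and FGF21 throughout.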
